A study of Mus musculus with 12 samples.

Results

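The enzymes described here build serine and pass its carbon to folate. They are the 9 genes Phgdh, Psat1, Psph, Shmt1, Shmt2, Mthfd1, Mthfd2, Mthfd1l and Aldh1l2, chosen by name from the deposited table of 16411 genes, and all 9 were among the 13191 genes that passed the filter on low counts and were tested. Poly A RNA of 6 tumors (tumor 1 to 6) and 6 pieces of benign mammary tissue (benign 1 to 6) was compared, all from female mice carrying the MMTV-Neu-NDL-YD5 transgene, in which the MMTV promoter drives an activated form of the HER2 receptor in the mammary epithelium. The mice were of FVB background and heterozygous for the transgene. Benign tissue was mammary tissue with no visible tumor, so the benign samples carry the transgene too, and for RNA the tumors and the benign samples were taken from different mice. The sources used here give no age at collection for single samples. The question asked of these genes was whether tumors and benign tissue differ, and whether the mitochondrial enzymes differ in the same way as their cytosolic counterparts.

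Serine is made from the glycolytic intermediate phosphoglycerate by 3 enzymes in sequence. Phgdh oxidizes phosphoglycerate, Psat1 transfers an amino group from glutamate, and Psph removes the phosphate. Serine hydroxymethyltransferase, Shmt1 in the cytosol and Shmt2 in mitochondria, then moves a carbon from serine to tetrahydrofolate and leaves glycine. In mitochondria Mthfd2 oxidizes that folate, Mthfd1l releases formate from it for export, and Aldh1l2 can instead oxidize the formyl group to CO2 while making NADPH. In the cytosol the single protein Mthfd1 works on the same folate forms, and Aldh1l1 is the cytosolic counterpart of Aldh1l2. Mthfd2 is widely known as an enzyme of embryonic and dividing cells that is low in most adult tissues.

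By the GENCODE M21 annotation of GRCm38, the serine synthesis genes are Phgdh at chr3:98313170-98339990, Psat1 at chr19:15904678-15947337 and Psph at chr5:129765558-129787449. The cytosolic enzymes are Shmt1 at chr11:60788104-60811718 and Mthfd1 at chr12:76255298-76319803. The mitochondrial enzymes Shmt2, Mthfd1l and Aldh1l2 share a chromosome, at chr10:127517123-127522444, chr10:3973118-4167081 and chr10:83487450-83534140, and Mthfd2 lies at chr6:83305691-83325908. These are protein-coding genes, and the counts are per gene, over all of its transcripts.

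The RefSeq table of promoter windows (250 bases before to 50 bases after a listed start, build GRCm38.p6) held 8 of the 9 enzymes, and Aldh1l2 was not matched. Both strands were searched for TGATGNAA, the core of the element bound by C/EBP and ATF factors, and for the E-box CACGTG. Neither was found in the window of any of the 8 matched enzymes, against 3.97% and 7.15% of all 32851 promoter windows. The motifs CCAAT and GGGCGG, which do not overlap each other, were added after the sequences had been seen. CCAAT was found on either strand in the windows of 6 of the 8 (Phgdh, Psat1, Psph, Mthfd2, Shmt1 and Mthfd1), against 37.4% of all windows, and GGGCGG in 5 of the 8, against 35.7%. No comparison of these shares was tested, and CCAAT was found both in enzymes called lower in tumors and in Shmt1 and Mthfd1, which were not called. The 150 bases before the start are shown for the 4 enzymes with fewer transcripts in tumors, and for Shmt1 and Shmt2, which were not called different, one with and one without CCAAT. Each is printed 5′ to 3′ on the strand of the gene, the minus strand in all 6, with CCAAT or its reverse complement ATTGG in capitals.
Psat1 has a second start in the table, whose window holds no CCAAT but holds GGGCGG, which its first window lacks. An enzyme was counted if any of its windows held the motif, whereas the shares over all windows are per window. The windows of Mthfd2, Psat1 and Shmt1 lie inside the gene spans given above. The 5′ ends of those spans, at 83325908, 15947337 and 60811718, were not searched. The bases printed for Psph also lie inside its span, whose 5′ end at 129787449 falls within its window. The positions are chr3:98339970-98340119 for Phgdh, chr19:15925060-15925209 for Psat1, chr5:129787254-129787403 for Psph, chr6:83317605-83317754 for Mthfd2, chr11:60811266-60811415 for Shmt1 and chr10:127522445-127522594 for Shmt2.
Phgdh: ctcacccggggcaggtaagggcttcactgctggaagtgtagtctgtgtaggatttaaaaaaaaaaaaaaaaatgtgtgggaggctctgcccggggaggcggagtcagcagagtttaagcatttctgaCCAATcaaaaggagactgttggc
Psat1: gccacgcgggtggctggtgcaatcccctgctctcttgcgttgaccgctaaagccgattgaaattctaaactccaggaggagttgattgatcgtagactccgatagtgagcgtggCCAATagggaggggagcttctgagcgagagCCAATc
Psph: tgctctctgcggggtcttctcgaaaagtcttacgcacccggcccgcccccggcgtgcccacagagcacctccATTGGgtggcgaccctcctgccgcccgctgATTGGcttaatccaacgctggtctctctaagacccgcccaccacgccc
Mthfd2: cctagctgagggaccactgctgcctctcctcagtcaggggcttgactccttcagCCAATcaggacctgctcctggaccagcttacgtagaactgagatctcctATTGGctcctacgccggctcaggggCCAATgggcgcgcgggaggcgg
Shmt1: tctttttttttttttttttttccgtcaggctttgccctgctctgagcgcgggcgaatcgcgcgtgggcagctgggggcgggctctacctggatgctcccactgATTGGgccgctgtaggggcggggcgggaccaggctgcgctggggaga
Shmt2: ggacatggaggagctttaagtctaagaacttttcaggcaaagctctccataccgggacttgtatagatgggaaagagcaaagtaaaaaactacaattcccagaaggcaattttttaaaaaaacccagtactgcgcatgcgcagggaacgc

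Total counts per sample ranged from 5240853 to 8588567. Values are given as CPM, counts scaled to library size after edgeR's TMM scaling, and the fewest counts any enzyme had in any sample were 7 (Aldh1l2 in benign 4). Erbb2, the gene for HER2, ranged from 44.8 to 73.7 CPM in benign tissue and from 1989 to 16634 CPM in tumors, without overlap. The tissues differed in their cells. Summed adipocyte markers (8 genes) lay between 10872 and 23497 CPM in benign tissue and between 26.0 and 140 CPM in tumors, fibroblast markers (6 genes) between 3281 and 7423 against 331 and 716, and basal epithelial markers (7 genes) between 699.9 and 1556 against 31.9 and 111. Luminal epithelial markers (8 genes) lay between 905 and 2460 CPM in benign tissue and between 2657 and 4368 in tumors, with 6 of the 8 called higher and Krt19 lower. Benign 3, 4 and 6 also held skeletal muscle transcripts, at 52069, 33925 and 88290 CPM over 9 markers. Far less lay in benign 5, at 360 CPM against 21.1 and 26.6 in benign 1 and 2. Tumor 5 had 154 CPM of the same markers against 2.05 to 10.8 in the other tumors. Benign 1 held lymphocyte transcripts, with 855 CPM over 6 immune markers against 52.9 to 89.5 in the other benign samples. In bulk tissue, fewer cells of a type cannot be told apart from less RNA per cell.

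Of the 9 enzymes, 1 (Aldh1l2) was called higher in tumors and 4 (Phgdh, Psat1, Psph and Mthfd2) were called lower by edgeR's quasi-likelihood test at an adjusted p-value under 0.1, and the other 4 did not pass. Over all genes tested 28.2% were called higher and 34.8% lower, so tumors and benign tissue differed in most genes and the number of calls among the enzymes is not in itself particular to them. The median log2 fold change of the 9 was −0.20, against −0.06 over all genes tested. DESeq2, run as an alternative, called the same 1 enzyme higher and the same 4 lower, against 26.6% and 33.3% of the genes it tested. Aldh1l2 was the 1 enzyme whose groups did not overlap, which held for 14.7% of all genes in that direction. No enzyme had all tumors below all benign samples, against 21.2% of all genes.

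**Figure D1:**
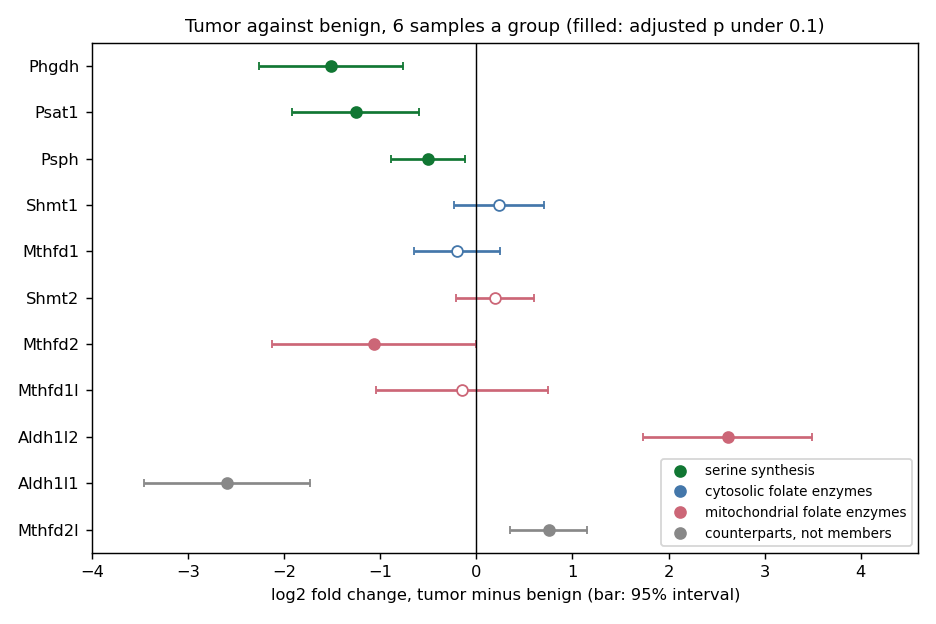
Log2 fold change of each enzyme between tumors and benign tissue (x axis, tumor minus benign, 6 samples a group) with its 95% interval, by role. Filled points passed an adjusted p of 0.1 in edgeR: the 3 serine synthesis enzymes and Mthfd2 lie left of 0, Aldh1l2 lies at 2.61, and Aldh1l1 and Mthfd2l, which are not among the 9, are drawn in grey.

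The 3 enzymes of serine synthesis were all called lower in tumors. Phgdh, which catalyses the committed step, ranged from 88.4 to 201 CPM in benign tissue (median 129) and from 24.9 to 107 CPM in tumors (median 40.5). Tumor 5 was the sample at 107 CPM and overlapped with benign tissue, while the other 5 tumors lay below the lowest benign sample. The means were 138 ± 42.2 and 48.4 ± 30.4 CPM (SD, n = 6 per group), a log2 fold change of −1.51 (SE 0.34, edgeR adjusted p = 0.0023). Without benign 3, 4 and 6 the log2 fold change was −1.55, and it stayed between −1.85 and −1.32 with any single sample left out. Reads of Phgdh are hard to place: 74.1% of its 31-base stretches also occur in transcripts of other genes, and 73.1% in transcripts of 22 pseudogenes, of which 0 are listed in the table. How the counting shared reads among them was not tested, so the level of Phgdh is less certain than that of the other enzymes.

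Psat1 ranged from 62.3 to 215 CPM in benign tissue (median 118) and from 42.3 to 82.6 CPM in tumors (median 51.4). Benign 3 and 5 were the highest samples, and 5 of the 6 tumors lay below the lowest benign sample, with tumor 5 again the exception. The means of 132 ± 65.2 and 55.6 ± 14.5 CPM (SD, n = 6 per group) gave a log2 fold change of −1.25 (SE 0.30, edgeR adjusted p = 0.0035). Of the 31-base stretches of Psat1, 3.56% occur in other genes. Without benign 3, 4 and 6 its log2 fold change was −1.33.

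Psph, the phosphatase that releases serine, differed less. It ranged from 14.6 to 28.3 CPM in benign tissue (median 19.9) and from 12.4 to 19.0 CPM in tumors (median 14.4). Benign 4 and 6 had the highest values, at 28.3 and 24.9 CPM, and tumor 1 was the highest tumor. Both held muscle transcripts and the most brown fat markers (2454 and 545 CPM over 4 genes, against 19.7 to 97.1 CPM in the other benign samples), while benign 3, with more muscle transcripts than benign 4, had 20.7 CPM of Psph. The part of these tissues in the level of Psph was not tested. Its log2 fold change was −0.50 (SE 0.18, edgeR adjusted p = 0.026, n = 6 per group). Without benign 3, 4 and 6 it was −0.17 and no longer called (adjusted p = 0.46), and without benign 1 as well it was −0.10 (adjusted p = 0.72). Phgdh and Psat1 kept their calls without these samples and Psph did not. Benign 1, 2 and 5 remained in the first of these fits and benign 2 and 5 in the second. Of the 31-base stretches of Psph, 24.8% occur in transcripts of other genes, so its reads are also less certain to place.

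**Figure D2:**
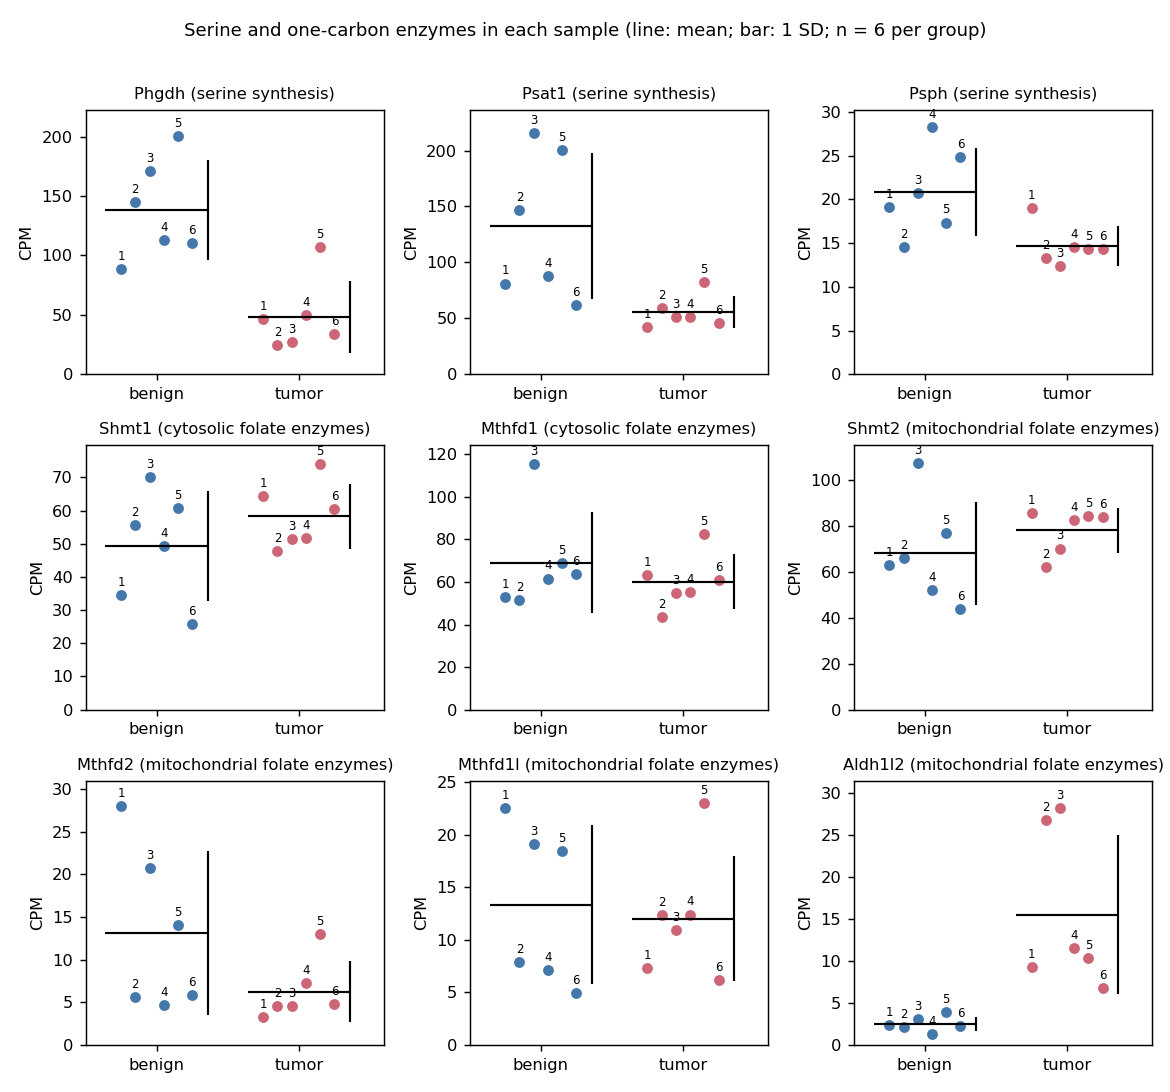
CPM of each of the 9 enzymes (y axis, from 0, ranges differ) in the 6 benign samples and the 6 tumors, with the replicate number at each point, the group mean as a line and 1 SD as a bar. Phgdh and Psat1 lie below the lowest benign sample in every tumor but tumor 5, while Aldh1l2 lies between 1.25 and 3.87 CPM in benign tissue and between 6.81 and 28.3 CPM in tumors.

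In contrast to the serine synthesis enzymes, neither cytosolic folate enzyme was called different. Shmt1 ranged from 25.7 to 70.0 CPM in benign tissue (median 52.4) and from 47.9 to 73.9 CPM in tumors (median 56.1). The tumors lay within or just above the benign range, and benign 1 and 6 were the lowest samples of all. For Shmt1 the log2 fold change was 0.24 (95% interval −0.23 to 0.71, edgeR adjusted p = 0.37, n = 6 per group).

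Mthfd1, which interconverts the folate forms of the cytosol, ranged from 51.7 to 116 CPM in benign tissue (median 62.6) and from 43.7 to 82.6 CPM in tumors (median 58.2). Benign 3, at 116 CPM, stood apart from the other benign samples, which did not pass 68.8 CPM. The log2 fold change of Mthfd1 was −0.20 (95% interval −0.64 to 0.25, edgeR adjusted p = 0.43), and the intervals of both cytosolic enzymes allow changes of either sign.

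The 4 mitochondrial enzymes did not move together: 1 was higher, 1 was lower and 2 were not called. Shmt2, which supplies mitochondria with folate-bound carbon, ranged from 43.7 to 108 CPM in benign tissue (median 64.5) and from 62.0 to 85.5 CPM in tumors (median 83.1). All tumors lay inside the benign range. For Shmt2 the difference on the log2 scale was 0.19 (95% interval −0.22 to 0.60, edgeR adjusted p = 0.40). Benign 3 was the highest sample, and without it Shmt2 was called higher in tumors, with a log2 fold change of 0.37 (adjusted p = 0.056).

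Mthfd2 had the widest spread of the 9 in benign tissue relative to its level. It measured 28.0, 5.61, 20.7, 4.63, 14.1 and 5.86 CPM in benign 1 to 6 and 3.27, 4.54, 4.57, 7.29, 13.0 and 4.83 CPM in tumors 1 to 6. Benign 1, 3 and 5 were high and the other 3 benign samples lay among the tumors. A log2 fold change of −1.07 was fitted (SE 0.49, 95% interval −2.13 to −0.0036, edgeR adjusted p = 0.081, n = 6 per group). This call was lost in 8 of the 12 fits that left out a single sample, those without benign 1, 3 or 5 or without tumor 1, 2, 3, 4 or 6, and the log2 fold change then ranged from −1.36 to −0.64 with adjusted p-values from 0.031 to 0.25 over the 12. It was smallest without benign 1, the sample with lymphocyte transcripts (−0.64, adjusted p = 0.25). Without benign 1, 3, 4 and 6 together, with benign 2 and 5 left, it was −0.63 (adjusted p = 0.37).

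Mthfd1l, the formate-releasing enzyme, showed the same high and low benign samples as Mthfd2. It measured 22.6, 7.88, 19.1, 7.13, 18.5 and 4.97 CPM in benign 1 to 6 and between 6.15 and 23.0 CPM in tumors (median 11.7). Benign 1, 3 and 5 were high here too, and tumor 5 was the highest tumor for both genes. The log2 fold change of Mthfd1l was −0.15 (95% interval −1.05 to 0.74, edgeR adjusted p = 0.78). Mthfd1l was also among the 3 genes whose deviations from the group means were most like those of Mthfd2 over the 12 samples (Pearson's r = 0.90), after Me2, the mitochondrial malic enzyme (r = 0.94), and Trmt6 (r = 0.90), out of 10812 genes with a mean of at least 10 CPM compared. These correlations are a description and share the libraries and their scaling.

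Summed proliferation markers (7 genes) were 331, 420, 960, 125, 794 and 96.7 CPM in benign 1 to 6 and between 568 and 779 CPM in tumors. Benign 3 and 5 were therefore high for these markers, for Mthfd2 and for Mthfd1l, whereas benign 1 was high for both enzymes and for immune markers, with 331 CPM of proliferation markers. Of the 7 markers, Mki67 had the highest log2 fold change, 1.26 (edgeR adjusted p = 0.12). The part of dividing cells, lymphocytes or muscle in the level of Mthfd2 was not tested.

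**Figure D3:**
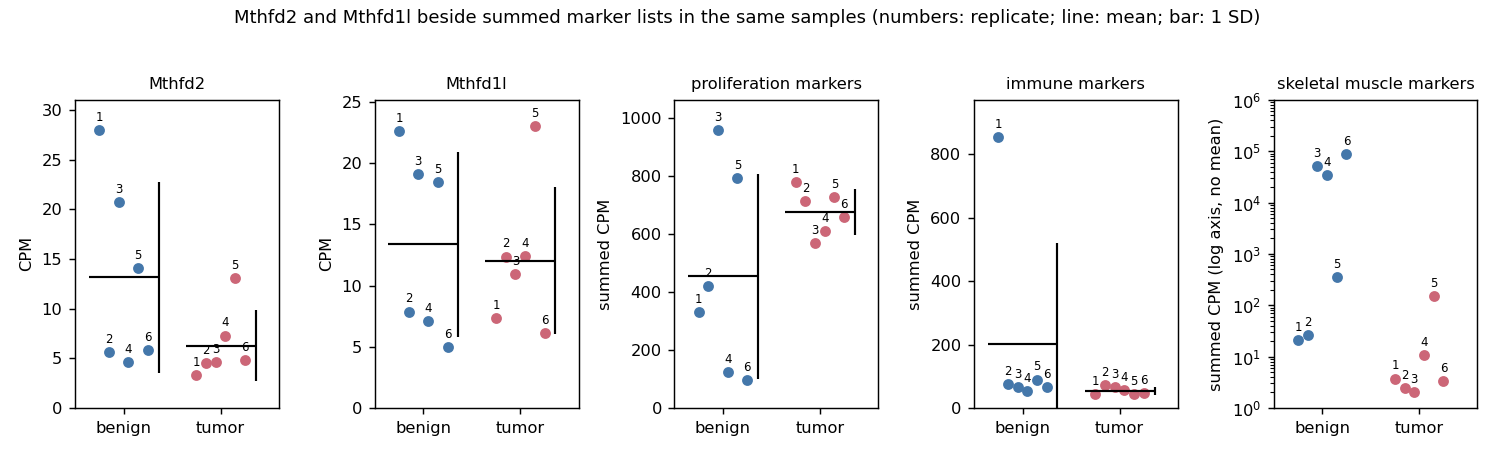
Mthfd2 and Mthfd1l (CPM) beside the summed CPM of proliferation, immune and skeletal muscle markers in the same 12 samples, with replicate numbers at the points and, except on the log axis of the muscle panel, the group mean as a line and 1 SD as a bar. Mthfd2 is highest in benign 1 (28.0 CPM), benign 3 (20.7 CPM) and benign 5 (14.1 CPM); benign 3 and 5 have the highest proliferation markers and benign 1 the highest immune markers.

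Aldh1l2, which oxidizes formyl-folate in mitochondria, was the enzyme with the largest change of the 9. It measured 2.41, 2.15, 3.03, 1.25, 3.87 and 2.31 CPM in benign 1 to 6 and 9.34, 26.8, 28.3, 11.6, 10.4 and 6.81 CPM in tumors 1 to 6. Every tumor lay above every benign sample, and tumors 2 and 3 were well above the other 4 tumors. The means were 2.50 ± 0.88 and 15.5 ± 9.45 CPM (SD, n = 6 per group), 6.21 times higher in tumors, with a log2 fold change of 2.61 (SE 0.41, edgeR adjusted p = 1.3e-04). The counts were low in benign tissue, from 7 to 31 per sample, and reached 60 to 235 in tumors. Leaving out any single sample gave a log2 fold change between 2.42 and 2.83, and without benign 3, 4 and 6 it was 2.49. Of its 31-base stretches 17.1% occur in other genes.

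Its cytosolic counterpart Aldh1l1, which is not among the 9, went the other way. Aldh1l1 ranged from 90.2 to 168 CPM in benign tissue (median 118) and from 7.63 to 52.4 CPM in tumors (median 15.8), without overlap. Its log2 fold change was −2.59 (SE 0.40, edgeR adjusted p = 1.1e-04). Mthfd2l, a second mitochondrial enzyme with the activity of Mthfd2, ranged from 12.5 to 17.8 CPM in benign tissue and from 19.0 to 40.0 CPM in tumors, again without overlap. Its log2 fold change was 0.75 (SE 0.19, edgeR adjusted p = 0.0038), opposite in sign to that of Mthfd2.

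The balance between compartments was compared within each sample as the log2 ratio of a mitochondrial enzyme to its cytosolic counterpart, for 4 ratios, by two-sided exact permutation tests that draw on all 924 ways to split the 12 samples evenly. The ratio of Aldh1l2 to Aldh1l1 was −5.54 ± 0.77 in benign tissue and −0.34 ± 1.35 in tumors (SD, n = 6 per group). It ranged from −6.78 to −4.72 in benign tissue and from −2.31 to 1.24 in tumors, so the groups did not overlap, and it was higher in 6 of 6 tumors. The difference was 5.20 on the log2 scale, 36.7-fold. All tumors lay above all benign samples for Aldh1l2 and below them for Aldh1l1, so their ratio had to separate the groups and its permutation p-value was bound to be the smallest possible. It is given as a description, with no test.

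The other 3 ratios did not differ beyond the spread between samples. The log2 ratio of Shmt2 to Shmt1 was 0.48 ± 0.31 in benign tissue and 0.43 ± 0.15 in tumors (exact permutation p = 0.69, adjusted p = 0.81, n = 6 per group). That of Mthfd1l to Mthfd1 was −2.50 ± 0.85 and −2.40 ± 0.62 (exact permutation p = 0.81, adjusted p = 0.81). That of Mthfd2 to Mthfd1 was −2.64 ± 1.0 and −3.33 ± 0.55, lower in tumors by 0.69 on average (exact permutation p = 0.17, adjusted p = 0.33). The adjustment ran over all 4 ratios, that of Aldh1l2 to Aldh1l1 included. This makes the adjusted p-value of Mthfd2 to Mthfd1 smaller than over the other 3 alone. A missed threshold does not show that these balances were equal.

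**Figure D4:**
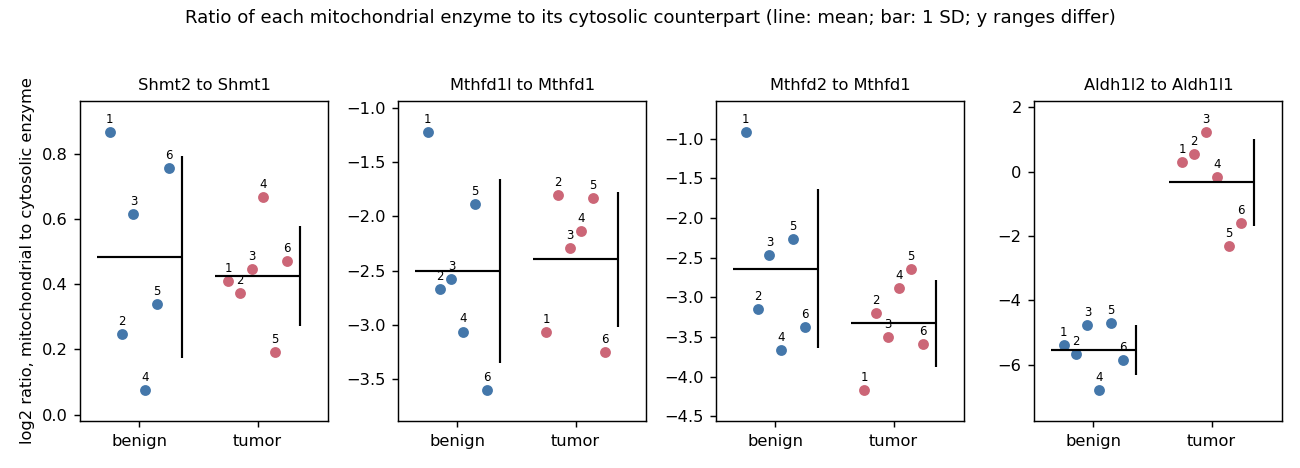
Log2 ratio of each mitochondrial enzyme to its cytosolic counterpart in every sample (y axes differ in range), with replicate numbers at the points, the group mean as a line and 1 SD as a bar. The groups overlap for 3 of the 4 ratios, and the ratio of Aldh1l2 to Aldh1l1 lies between −6.78 and −4.72 in benign tissue and between −2.31 and 1.24 in tumors.

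Levels of different genes can be set side by side only per length, here as CPM per kilobase of the longest coding transcript. Phgdh had the highest mean level per kilobase of the 9 in benign tissue, at 73.0, followed by Psat1 at 50.6, but their ranges over samples (46.7 to 106 and 23.8 to 82.3) overlapped. Shmt2 came next among the 9 at 29.8, then Mthfd1 at 21.3, Shmt1 at 17.2 and Psph at 12, each overlapping with its neighbour. Mthfd2 (6.31) and Mthfd1l (3.62) followed, and Aldh1l2 (0.415) came last, with a range of 0.207 to 0.642 below the lowest Mthfd1l sample at 1.35. In tumors Shmt2 had the highest mean level per kilobase, at 34.1, ahead of Phgdh at 25.6, Psat1 at 21.2, Shmt1 at 20.4, Mthfd1 at 18.6 and Psph at 8.46. Shmt2 ranged from 27.1 to 37.3 across tumors and Phgdh from 13.1 to 56.5, so these neighbours were not separated either. Aldh1l2 reached 2.58 in tumors, near Mthfd2 at 3.0, Mthfd1l at 3.27 and its counterpart Aldh1l1 at 4.98, and the tumor ranges of Aldh1l2 (1.13 to 4.69) and Aldh1l1 (1.83 to 12.6) overlapped. The order depends in part on the length used: over all coding exons, Shmt1 (20.4) passed Psat1 (18.9) and Mthfd2 (3.0) passed Mthfd1l (2.82) in tumors.

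Tumor 5 was the highest tumor for 6 of the 9 enzymes (Phgdh, Psat1, Shmt1, Mthfd1, Mthfd2 and Mthfd1l), and tumor 2 was the lowest for 4 (Phgdh, Shmt1, Mthfd1 and Shmt2). Among benign samples, benign 3 was the highest for 4 enzymes and benign 6 the lowest for 4. The genes whose deviations were most like those of Phgdh over the 12 samples, out of 10811, were Pick1 (r = 0.95), Twf1 (r = 0.94) and Scrn2 (r = 0.93). Pick1 measured 175 CPM in tumor 5 against 83.5 to 117 CPM in the other tumors, so the likeness included that sample. In benign tissue Pick1 measured 40.9 to 55.1 CPM, so it was higher in tumors while Phgdh was lower. Deviations from the group means leave out that difference.

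The genes around these enzymes were read from 8 lists with 54 genes, of which 50 were in the table and 47 were tested. Of the 47, 14 were called higher in tumors and 15 lower by edgeR, beside 28.2% higher and 34.8% lower over all genes tested. Their log2 fold changes ranged from −5.99 to 3.37, with a median of −0.047. The lists are small, and no list was tested against the other genes. From each list, the called gene with the highest and the one with the lowest log2 fold change are named.

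Folate uptake and retention had 4 of 7 tested genes higher and 2 lower. Folr1, the folate receptor of epithelial cells, ranged from 3.73 to 15.4 CPM in benign tissue and from 83.9 to 154 CPM in tumors, a log2 fold change of 3.37. Folr2, the receptor known from macrophages, had a log2 fold change of −2.47 in the other direction. Among 8 other folate cycle genes 2 were higher and 1 lower. Mthfd2l and Aldh1l1, given above, had the highest and the lowest log2 fold change of the genes called among them.

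Glycine cleavage, which takes carbon from glycine inside mitochondria, had 3 of 4 genes lower and 1 higher. The call of Gldc, its decarboxylase, named after its values were seen, was near the threshold (log2 fold change −1.47, edgeR adjusted p = 0.082, with counts down to 1), and without benign 3, 4 and 6 there were 2 genes lower. Gcsh, its carrier protein, had a log2 fold change of −1.67. Amt, its aminomethyltransferase, had one of 0.61, and the call of Amt was lost without benign 3, 4 and 6 (0.43, adjusted p = 0.11). The methionine cycle and transsulfuration had 3 of 5 tested genes lower, and under 9 of 22 alternatives, the fit without benign 3, 4 and 6 included, 1 was also called higher (Mat2b in that fit, named after its values were seen). Cbs, which makes cystathionine from serine and homocysteine, had a log2 fold change of −2.53 at levels no higher than 5.62 CPM in benign tissue, and Mat2a, which makes the methyl donor S-adenosylmethionine, one of −0.86.

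Transport and other use of serine had 3 of 11 tested genes higher and 3 lower. Slc1a5, a neutral amino acid transporter best known for glutamine, measured between 611 and 1247 CPM in benign tissue and between 11.1 and 21.9 CPM in tumors, a log2 fold change of −5.99. Sfxn3, of the sideroflexin family of mitochondrial serine carriers, had a log2 fold change of 1.47, while Sfxn1 of the same family, named after its values were seen, had one of −0.48 (edgeR adjusted p = 0.013). Purine synthesis, which takes formyl groups from folate, had 3 of 6 genes higher and 1 lower. Pfas had a log2 fold change of 0.71 and Gart one of −0.39. The call of Gart was lost without benign 3, 4 and 6 (−0.19, adjusted p = 0.21). Of the 3 tested genes listed around choline, Chdh was higher (0.48) and Pemt lower (−1.11).

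Of the 3 regulators listed, Nfe2l2, a factor of the antioxidant response, was called lower, with a log2 fold change of −0.90. Atf4, the stress factor known to activate serine synthesis genes, ranged from 131 to 208 CPM in benign tissue and from 107 to 238 CPM in tumors (log2 fold change −0.31, edgeR adjusted p = 0.23). Tumor 5 was the sample at 238 CPM, the highest of all, and the other tumors did not pass 129 CPM. Myc had a log2 fold change of 0.17 (edgeR adjusted p = 0.62).

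**Figure D5:**
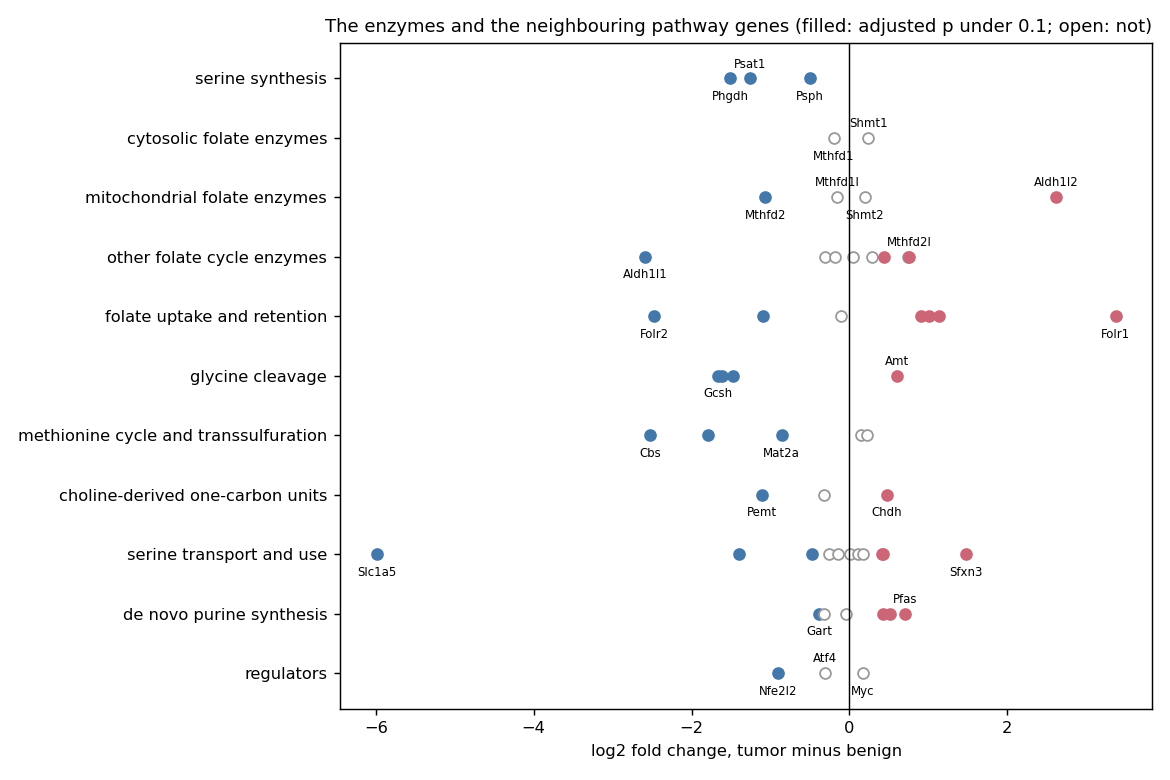
Log2 fold change between tumors and benign tissue (x axis, 6 samples a group) of the 9 enzymes in the upper 3 lines and of the 47 tested genes of the 8 neighbouring lists below. Filled points passed an adjusted p of 0.1 in edgeR; among the neighbours 14 of these lie right and 15 left of 0, with Folr1 at 3.37 and Slc1a5 at −5.99.

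The calls were also counted without the benign samples that held the most muscle or lymphocyte transcripts. Without benign 3, 4 and 6, 1 enzyme was called higher (Aldh1l2) and 3 lower (Phgdh, Psat1 and Mthfd2), against 26.7% and 28.7% of all genes tested. Without benign 1 as well, Aldh1l2 was called higher and Phgdh and Psat1 lower, against 23.5% and 25.8%. Aldh1l2, Phgdh and Psat1 were thus the enzymes whose calls held in both. Fewer benign samples entered these fits, benign 1, 2 and 5 in the first and benign 2 and 5 in the second. The effect of the smaller group on the lost calls was not tested.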

How the data were processed

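The authors enriched poly A RNA from 6 tumors and 6 benign samples, made directional libraries and sequenced paired 50-base reads. Per the labels, reads were trimmed with Trim Galore, quantified with Salmon and compared with DESeq2, with build mm10. Versions, the annotation and the salmon settings are not given in the sources used here. The deposited values are estimated counts per gene, given by the authors as whole numbers and not scaled for library size.

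The filter was filterByExpr by group, with a minimum count of 10 and a minimum total of 15. After TMM scaling, the groups were compared with edgeR 4.0.16 (R 4.3.3), using its two-sided quasi-likelihood test and Benjamini-Hochberg adjustment over 13191 genes. Calls used an adjusted p of 0.1, the threshold of the study. DESeq2 1.42.0 was an alternative. Log2 ratios of paired enzymes used 2 added counts and exact permutation tests (scipy 1.17.1), adjusted over 4 ratios and read at 0.05 for the 3 whose outcome the genes' own separation did not fix. Standard errors follow from the log2 fold change and its F statistic. Lengths and coordinates came from GENCODE M21 on GRCm38, which may not be the annotation the authors used, and 31-base stretches shared between genes were counted in its transcripts.

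At the mean library size 3 counts correspond to 0.411 CPM. Replicates differed from each other by more than sampling noise. Nothing in the labels says how many mice a sample came from, and p-values measure the spread between these samples. The edgeR step was tested on simulated counts. The alternatives were DESeq2, other scalings, other filters, a threshold of 0.05, other added counts and group medians for the ratios, a replicate block, fits without each single sample, and fits without benign 3, 4 and 6 or without 1, 3, 4 and 6 (the last added after seeing the data). The enzymes and gene lists were chosen with earlier results of these data known, and 1 gene of the lists is not reported here. Named genes are the 9 enzymes, Aldh1l1 and Mthfd2l, the called gene with the highest and the one with the lowest log2 fold change in each neighbouring list (mean of at least 1 CPM in the higher group), the 3 regulators, and the 3 genes most like Phgdh and Mthfd2.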

Additional observations from a re-analysis of the deposited data

Results flagged for a closer look

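In 11 of 60 groups of 6 values, 1 sample lay far above the other 5 by Dixon's criterion, applied to CPM. For independent, normally distributed values chance alone meets it in about 1 of 20 groups. These groups share the same samples and were not put on a log scale, so that rate cannot be set against the 11. Tumor 5 was the sample in 5 of the 11. Its Phgdh was 107 CPM against 24.9 to 50.2 CPM in the other tumors, and its Mthfd1l was 23.0 CPM against 6.15 to 12.4 CPM. Its Aldh1l1 was 52.4 CPM against 7.63 to 21.3 CPM. Its Atf4 was 238 CPM against 107 to 129 CPM, and its Slc1a5 was 21.9 CPM against 11.1 to 14.3 CPM.

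Benign 3, which held muscle transcripts and the highest proliferation markers, was the sample in 3. Its Mthfd1 was 116 CPM against 51.7 to 68.8 CPM in the other benign samples, and its Gart was 144 CPM against 81.2 to 90.9 CPM. Its Pfas was 50.7 CPM against 28.4 to 36.6 CPM.

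Tumor 1 was the sample in the other 3. Its Psph was 19.0 CPM against 12.4 to 14.6 CPM in the other tumors, its Mthfd2l 40.0 CPM against 19.0 to 25.4 CPM, and its Pfas 71.0 CPM against 50.7 to 57.9 CPM. Without any single sample, Phgdh, Psat1 and Psph kept their calls.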

How the results depend on the processing

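The calls of Phgdh, Psat1 and Aldh1l2 held under every alternative that could test them, and no result changed sign among those called. With at least 10 counts required in every sample, 0 enzymes were called higher, since Aldh1l2 was not tested there (7 counts in benign 4). Leaving out single samples gave 1 to 2 enzymes called higher, the second being Shmt2 without benign 3 (log2 fold change of Shmt2 between 0.094 and 0.37 over the 12 fits). Without benign 1, 3, 4 and 6 there were 2 called lower. Psph was not called without benign 3, 4 and 6 (−0.17) or 1, 3, 4 and 6 (−0.10). Mthfd2 was not called with total counts (−1.01), with at least 1 count in total (−0.97), at a threshold of 0.05 (−1.07) or without benign 1, 3, 4 and 6 (−0.63), and it ranged from −1.36 to −0.64 with single samples left out. The log2 ratio of Aldh1l2 to Aldh1l1, a description with no test, differed by 5.59 with group medians, by 4.93 without benign 3, 4 and 6 and by 4.86 without 1, 3, 4 and 6. For the calls lost, the cause was not tested.

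Replicate numbers are shared by both groups but name different mice, and same-numbered samples had correlations of their deviations between −0.12 and 0.10, with 0 of 6 matching best with its own number. With the replicate number as a block, Mthfd2 had a log2 fold change of −0.85 (adjusted p = 0.20) and was not called, and the ratio of Aldh1l2 to Aldh1l1 differed by 5.20. The block changed no other call among the 9 enzymes and the other 3 ratios. Depth limits Aldh1l2 most, with 7 to 31 counts in benign samples.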
